A study of Mus musculus with 17 samples.

Results

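Lingo1, Lingo2, Lingo3, Ncam1, Ncam2, Ntm, Opcml, Lsamp and Negr1 encode adhesion proteins of the neuronal surface. These 9 genes were chosen by their symbols from the 24498 gene symbols counted in bulk RNA sequencing of mouse dorsal hippocampus, and their expression was compared over the 6 groups of the study. All 9 had reads in every library, the lowest count being 103 for Lingo2, and all 9 passed the filter on low counts. Poly(A) RNA for the 17 libraries was taken from slices with the dentate gyrus and fields CA1 to CA3. Mice were either wild type (WT) or lacked Acss2 (KO), the gene of acetyl-CoA synthetase 2, an enzyme that turns acetate into acetyl-CoA. They were injected at the age of 6 months in the right dorsal hippocampus with tau purified from frontal cortex of Alzheimer's disease patients (Tau), or with phosphate-buffered saline (PBS), and tissue was taken 6 months later. The 4 male groups, WT PBS, KO PBS, WT Tau and KO Tau, had 3 libraries each, as did female KO Tau, whereas female WT Tau had 2, and no female PBS group was analysed here. WT and KO mice came from homozygous crosses among offspring of heterozygous breeders, and how many mice gave each of these libraries is not given in the sources used here. Nothing says that female and male libraries were prepared together, so sex and any other difference between these sets of libraries cannot be told apart. Libraries are called by the number in their label.

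As background, LINGO proteins are transmembrane proteins with leucine-rich repeats and an immunoglobulin domain. LINGO1 is a co-receptor of the Nogo receptor complex, through which myelin proteins restrain axon growth, and it restrains the maturation of oligodendrocytes. NCAM1 is the classic neural cell adhesion molecule, carries polysialic acid chains that loosen contacts, and takes part in synaptic plasticity in the hippocampus, while NCAM2 is its closest relative and is known from the olfactory system. The IgLON proteins, neurotrimin (Ntm), OPCML, LSAMP, NEGR1 and IGLON5, are small immunoglobulin domain proteins held on the neuronal surface by a lipid anchor, where they bind each other and affect neurite outgrowth and synapse number. LSAMP was named after its presence in the limbic system, to which the hippocampus belongs.

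Promoter sequences are shown for 4 genes whose levels the results below turn on, Lingo1 for the difference between female and male libraries and Ntm, Lsamp and Negr1 for the differences among male libraries. Each window is taken at the most upstream RefSeq start with an entry for that gene on GRCm38.p6, from 250 bases before to 50 after it. For Ntm this start lies inside the gene, whose upstream end on the minus strand is at 29963141 of chromosome 9. Capitals mark matches on either strand to TGGGAA, the core of the RBPJ motif, and to GTTGCC, part of the RFX motif. These factors were chosen because the study looked for their motifs at acetylated chromatin. Of 32851 mouse promoter windows of the same length, 25.6% held the RBPJ core and 12.5% the RFX letters, and of the 13 windows of the 8 genes with an entry, 4 and 1 did. The Lingo1 window (chr9:56796261-56796560, minus strand) and the Lsamp window (chr16:39984114-39984413, plus strand) held neither. The Ntm window (chr9:29413403-29413702, minus strand) held 1 RBPJ core, and the Negr1 window (chr3:156561544-156561843, plus strand) held 2 RBPJ cores and 1 RFX match, which do not overlap. The 4 windows differed in base composition, with GC contents of 71.3% for Lingo1, 68.0% for Negr1, 53.0% for Lsamp and 47.3% for Ntm.
Lingo1: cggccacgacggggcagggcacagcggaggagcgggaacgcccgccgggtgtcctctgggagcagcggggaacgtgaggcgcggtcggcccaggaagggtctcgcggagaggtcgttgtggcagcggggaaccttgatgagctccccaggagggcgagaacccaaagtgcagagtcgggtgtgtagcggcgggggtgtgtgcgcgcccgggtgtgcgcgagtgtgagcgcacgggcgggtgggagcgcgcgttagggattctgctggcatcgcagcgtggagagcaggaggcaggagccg
Ntm: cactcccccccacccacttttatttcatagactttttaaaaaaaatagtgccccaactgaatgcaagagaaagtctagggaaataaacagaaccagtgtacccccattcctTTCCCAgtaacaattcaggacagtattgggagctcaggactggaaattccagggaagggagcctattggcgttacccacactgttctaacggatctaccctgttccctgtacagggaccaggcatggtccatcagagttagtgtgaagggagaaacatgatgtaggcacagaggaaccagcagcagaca
Lsamp: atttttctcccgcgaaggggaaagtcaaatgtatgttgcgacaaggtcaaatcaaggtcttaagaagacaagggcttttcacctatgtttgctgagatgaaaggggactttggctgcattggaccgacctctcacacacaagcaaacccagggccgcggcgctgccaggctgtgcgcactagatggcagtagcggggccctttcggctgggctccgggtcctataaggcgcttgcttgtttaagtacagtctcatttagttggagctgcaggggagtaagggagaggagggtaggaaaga
Negr1: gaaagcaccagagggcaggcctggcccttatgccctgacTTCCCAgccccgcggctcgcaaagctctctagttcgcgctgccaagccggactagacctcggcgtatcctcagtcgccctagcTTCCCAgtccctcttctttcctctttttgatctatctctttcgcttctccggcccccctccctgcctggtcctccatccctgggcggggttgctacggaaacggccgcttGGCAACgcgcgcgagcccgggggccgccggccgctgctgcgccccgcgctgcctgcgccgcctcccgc

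The 9 genes are spread over 5 chromosomes. On GRCm38, Lingo1 (9:56618475-56796468, minus strand), Lingo2 (4:35706647-36951747, minus) and Lingo3 (10:80832801-80844039, minus) lie on different chromosomes, and Lingo3, with a span of 11239 bp, was the most compact of the 9. Ncam1 (9:49502136-49798925, minus) shares exonic bases with an antisense gene, Gm11149, on the other strand, and Ncam2 (16:81200697-81626828, plus) shares none with another gene. Opcml (9:27790775-28925410, plus) and Ntm (9:28994750-29963141, minus) are neighbours on chromosome 9 in opposite orientation. Lsamp (16:39984361-42181679, plus) spans 2197319 bp, the most of the 9, and Negr1 (3:156561794-157316445, plus) spans 754652 bp. Reads were counted over exons by strand.

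The total count per library ran from 14183131 to 22463635, and 3 counts, the limit that a count of 0 allows, were worth 0.134 to 0.212 CPM (counts scaled to a library total of 1000000). Acss2 itself ranged over 3.07 to 8.81 CPM in KO (9 libraries) and over 44.0 to 54.6 in WT (8 libraries), so every label fitted its genotype. Markers of CA1, of CA2 and CA3 and of dentate granule cells were above 0 in all 17 libraries, and so were those of neighbouring tissue. The summed level of 6 neocortex markers was 403.0 to 427.5 CPM in male WT PBS, but 211.5, 691.5 and 683.1 in male KO Tau 711, 712 and 713, and 256.5, 916.4 and 298.1 in male KO PBS 751, 752 and 753. Library 711 also stood apart from the other male libraries in 6 astrocyte markers, with a summed level of 3824.0 CPM against at most 2673.4. By chi-square per gene between a pair of libraries, which is larger the less alike they are, 711 was at 78.8 to 712 and 62.8 to 713. It was at 17.7 to 46.3 to the female libraries and at 32.8 to 82.6 to the male ones. The paper states that its bulk RNA sequencing used male mice, whereas the labels name 5 female libraries. Whether the sex labels fit was not tested. Choroid plexus markers reached 3976.9 CPM in 713 and at most 566.5 in any other library. In bulk tissue, fewer cells of a type and less RNA per cell cannot be told apart, and p-values measure the spread between these libraries.

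Per exon length, Lingo1 was the most abundant of the 9 genes in all 6 groups. In male WT PBS its level was 75.1 ± 6.3 RPKM (CPM per kilobase of exon, SD, n = 3), followed by Ncam1 with 28.0 ± 1.19. Ntm (18.7 ± 0.813 RPKM), Negr1 (18.2 ± 0.972) and Opcml (16.2 ± 1.21) came next, with ranges that overlapped from each to its neighbour in the order. Lingo3 stood at 13.9 ± 2.07 RPKM, Lsamp at 4.52 ± 0.416, Ncam2 at 4.08 ± 0.378 and Lingo2 at 2.9 ± 0.227. The ranges of Opcml and Lingo3 overlapped, as did those of Lsamp and Ncam2, whereas Lingo1, Ncam1 and Lingo2 were each apart from their neighbours. By CPM over all 17 libraries, 97.1% of the genes with reads were below Lingo1 and 59.0% below Lingo2. Of the relatives outside the 9, Iglon5 was at 10.7 ± 0.341 RPKM and Lingo4 at 0.19 ± 0.0371.

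**Figure D1:**
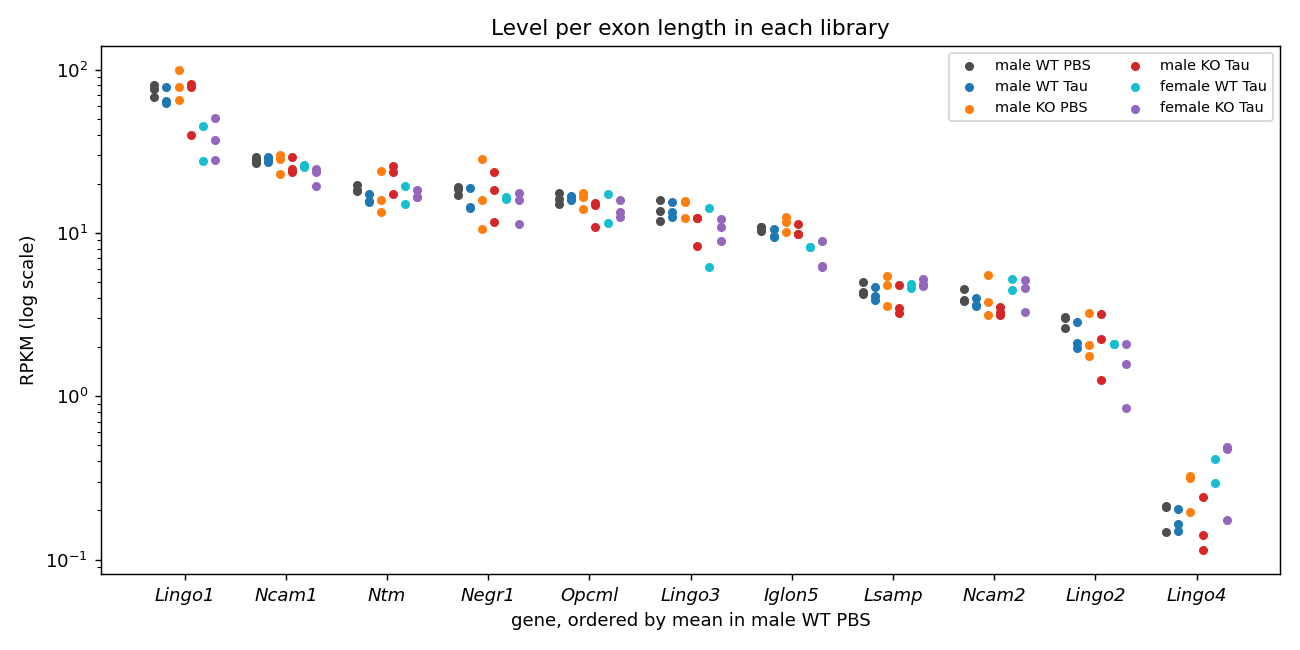
Level of the 9 adhesion genes and of Iglon5 and Lingo4 in RPKM on a log axis, with 1 point per library, coloured by group, and genes ordered by their mean in male WT PBS. Lingo1 was highest and Lingo4 lowest in every group, while Ntm, Negr1 and Opcml overlapped.

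The order of the 9 means was the same in male KO Tau and female KO Tau, and in the remaining groups some neighbours with overlapping ranges changed places. In male WT Tau, Opcml (16.4 RPKM) was above Ntm and Negr1 (15.9). Negr1 (18.4 RPKM) was above Ntm (17.8) in male KO PBS. Lsamp was above Ncam2 in 5 groups by mean RPKM and below it in female WT Tau (4.73 against 4.83), and their ranges overlapped in all 6. In male KO Tau, the mean of Ntm was 22.2 ± 4.41 RPKM and its range overlapped that of Ncam1 (25.9 ± 2.97), as it did in male KO PBS but in none of the other groups. Lingo1 in female WT Tau was at 36.2 ± 12.2 RPKM (n = 2) and in female KO Tau at 38.5 ± 11.2 (n = 3), still above Ncam1 with 25.8 ± 0.515 and 22.6 ± 2.87.

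Among the LINGO genes, Lingo1 separated the female libraries from most male ones. In male WT PBS it was at 321.4, 379.5 and 361.3 CPM, and in male WT Tau at 304.2, 296.3 and 370.9. In male KO PBS it was at 306.3, 469.4 and 371.6 CPM and in male KO Tau at 188.7, 369.7 and 387.2. The male groups overlapped, and only 711, at 188.7, lay below 296.3. In female WT Tau it was at 130.1 and 211.7 CPM and in female KO Tau at 237.8, 174.1 and 132.7. All 5 female libraries were therefore below the other 11 male libraries, and 2 of the 5 were above 711.

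Lingo2, a less abundant relative of Lingo1, was at 25.2, 21.9 and 25.0 CPM in male WT PBS and at 17.7, 16.4 and 23.5 in male WT Tau. In male KO PBS it was at 17.2, 27.0 and 14.6 CPM, and in male KO Tau at 10.5, 26.4 and 18.6. The lowest and the highest male values were thus both in KO groups, which overlapped the WT groups. Both female WT Tau libraries were at 17.4 CPM and the female KO Tau libraries at 13.0, 7.04 and 17.4. Lingo3, whose function is less well known, was at 48.7, 57.0 and 42.4 CPM in male WT PBS, at 44.7, 55.1 and 48.0 in male WT Tau and at 55.0, 43.6 and 55.8 in male KO PBS. In male KO Tau it was at 44.2, 29.6 and 43.8 CPM, all 3 below the WT Tau libraries, 711 and 713 by little and 712 by more. In the female libraries it ranged from 22.1 to 50.7 CPM, and these ends were the 2 WT Tau libraries.

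**Figure D2:**
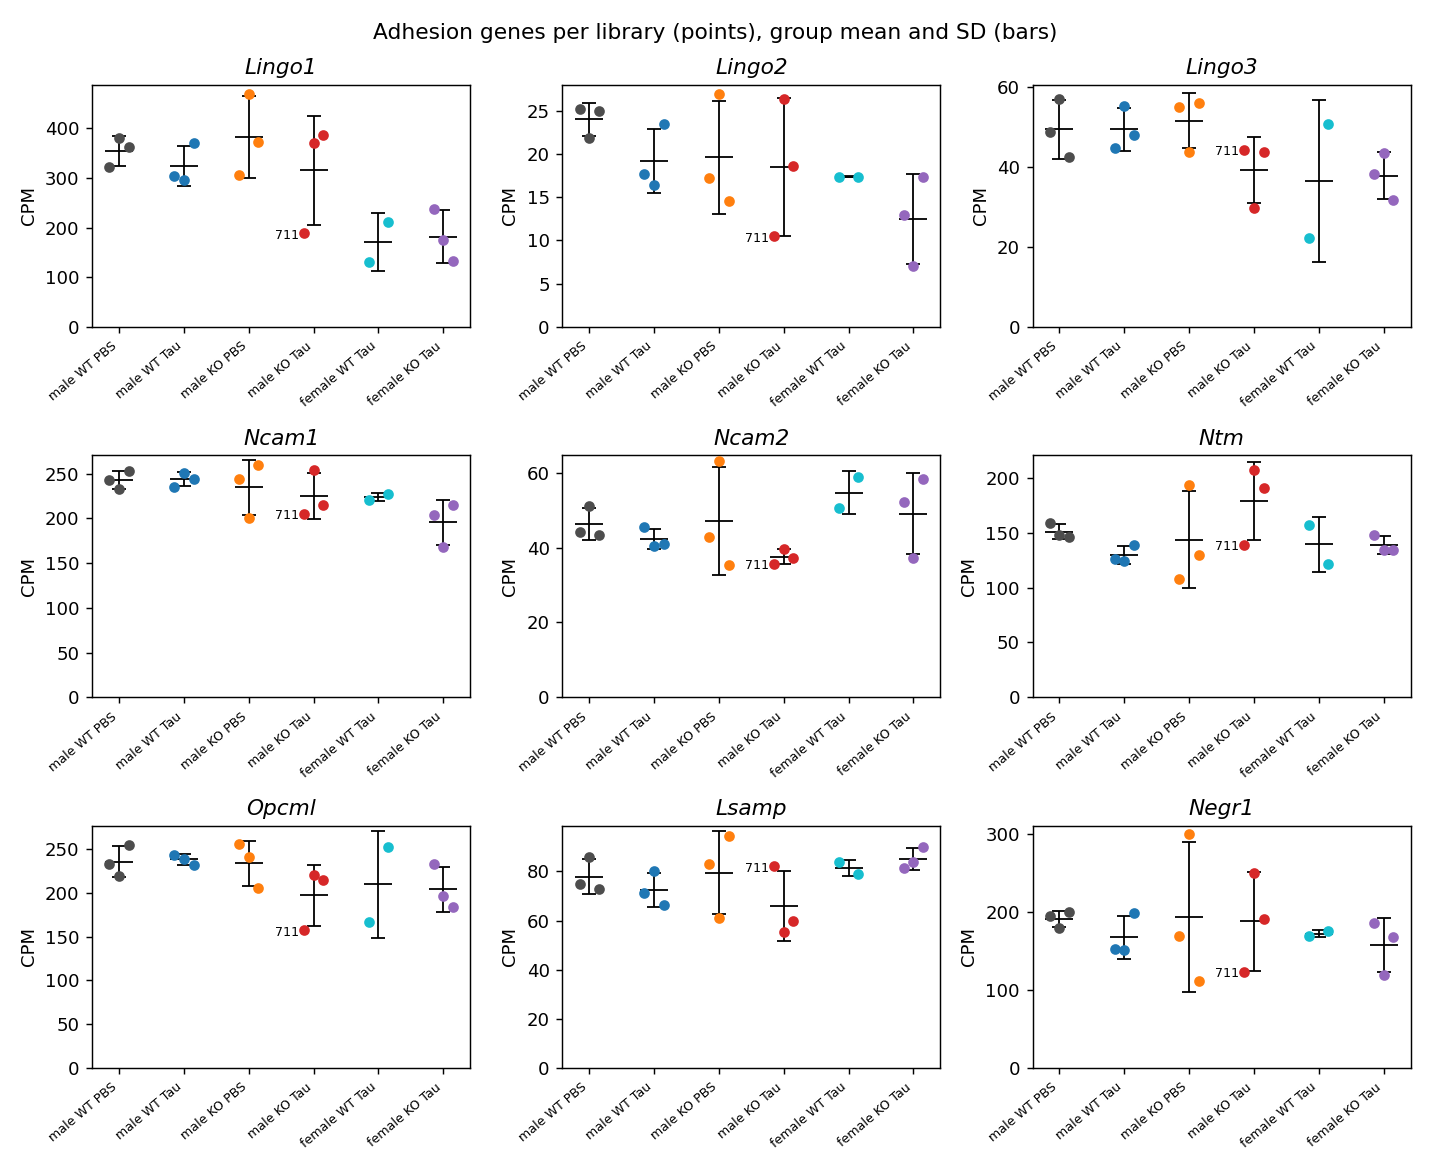
CPM of each of the 9 genes in every library (points), by group, with the group mean and SD (bars), and male KO Tau 711 marked. Lingo1 was lower in the female groups and in 711 than in the other male libraries, whereas Ncam1 varied little.

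Ncam1 had the smallest spread of the 9 genes, with a coefficient of variation of 10.7% over the 17 libraries, and Ncam2, at a lower level, had 18.8%. Ncam1 was at 243.3, 232.2 and 252.8 CPM in male WT PBS, at 235.1, 250.9 and 244.1 in male WT Tau, and at 244.3, 200.3 and 259.4 in male KO PBS. In male KO Tau it was at 204.8, 253.6 and 215.0 CPM. In female WT Tau it was at 220.5 and 226.9 CPM and in female KO Tau at 203.6, 167.5 and 215.1, so that the female groups did not overlap. Ncam2 was at 44.1, 51.1 and 43.4 CPM in male WT PBS, at 45.4, 40.3 and 41.0 in male WT Tau and at 42.7, 63.1 and 35.4 in male KO PBS. In male KO Tau it was at 35.6, 39.6 and 37.1 CPM, below both male WT groups. In female WT Tau it was at 50.6 and 58.8 CPM and in female KO Tau at 52.1, 37.1 and 58.2, and 4 of these 5 values were above all 6 male Tau values. The ratio of Ncam1 to Ncam2 reads was 4.54 to 5.82 in male WT PBS and 5.75 to 6.4 in male KO Tau. It was lowest in male KO PBS 752, at 3.18, and highest in 753 of the same group, at 7.32.

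Among the 4 IgLON genes of the 9, Ntm had the largest log2 difference between male KO Tau and male WT Tau, whereas in male KO Tau against male KO PBS those of Lsamp and Opcml were larger in size. Ntm was at 158.6, 148.3 and 146.3 CPM in male WT PBS and at 125.8, 124.1 and 138.8 in male WT Tau. In male KO PBS it was at 108.3, 193.5 and 129.4 CPM, and in male KO Tau at 139.1, 207.4 and 190.8. The KO Tau libraries were above the WT Tau libraries, though 711 (139.1) was above the highest of them (138.8) by little, and the WT Tau libraries were below the WT PBS libraries. In female WT Tau Ntm was at 157.3 and 121.9 CPM and in female KO Tau at 148.3, 134.0 and 134.5, so the female groups overlapped. Opcml, the neighbour of Ntm, was at 233.0, 219.3 and 254.2 CPM in male WT PBS, at 243.7, 238.9 and 231.6 in male WT Tau and at 255.2, 241.0 and 205.4 in male KO PBS. In male KO Tau it was at 157.1, 220.0 and 214.9 CPM, below every male WT Tau library and farthest below in 711. In the female libraries Opcml ranged from 166.5 to 252.5 CPM, both ends again being WT Tau.

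Lsamp was at 74.9, 86.0 and 72.7 CPM in male WT PBS and at 71.1, 80.1 and 66.4 in male WT Tau. In male KO PBS it was at 82.9, 61.1 and 94.3 CPM and in male KO Tau at 82.1, 55.4 and 60.0. The 3 lowest libraries, 712, 713 and KO PBS 752, were the 3 with the highest neocortex markers. In female WT Tau it was at 83.8 and 79.1 CPM and in female KO Tau at 81.3, 83.9 and 89.8. Negr1 was at 193.9, 179.4 and 199.1 CPM in male WT PBS and at 152.4, 150.3 and 198.6 in male WT Tau. In male KO PBS it ranged most of all, with 168.3, 299.6 and 111.4 CPM, and in male KO Tau it was at 123.0, 249.4 and 190.7. The lowest and the highest Negr1 values of the study were thus in the same group. In female WT Tau it was at 168.7 and 174.9 CPM and in female KO Tau at 185.2, 118.7 and 167.8.

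As a share of all reads on the 5 IgLON genes, Ntm made up 26.4%, 27.4% and 27.8% in male KO Tau, against 20.0% to 21.0% in male WT Tau and 20.9% to 23.0% in male WT PBS. In male KO PBS the share was 16.9%, 23.4% and 22.7%, so the 3 KO Tau libraries were above all 9 other male libraries on this scale, 711 included. In 711, however, the IgLON reads together came to 527.1 CPM, the lowest of the 17 libraries. Its Ntm level of 139.1 CPM was below the male WT PBS libraries (146.3 to 158.6). The female libraries ran from 18.8% to 26.3%. The share of Lsamp was 7.31% in 712, 8.75% in 713 and 7.38% in KO PBS 752, but 15.6% in 711 and 10.1% to 16.5% in the remaining male libraries. Negr1 was the share that was highest in 752, at 36.2%, and in 712, at 32.9%. These shares were looked at after the values were seen and were not tested, and no background over all genes was computed for them.

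The question of the study was how loss of Acss2 and Tau injection, alone and together, change expression. With both combined, that is for male KO Tau set against male WT PBS, none of the 9 genes passed the threshold, a false discovery rate (FDR) under 0.05 in edgeR's quasi-likelihood test over all genes. The background was 0.00662% of 15098 genes, which was 1 gene, Acss2. None of the 9 was at an unadjusted p under 0.05, beside 6.33% of all genes. Ntm was the only one of the 9 with a higher estimate (log2 fold change 0.25, SE 0.19) and the other 8 had lower ones. These ran from −0.37 (SE 0.30) for Lingo2 through −0.33 for Lingo3, −0.30 for Ncam2, −0.25 for Opcml, −0.23 for Lsamp, −0.16 for Lingo1 and −0.11 for Ncam1 to −0.02 for Negr1. Their median was −0.23, beside 0.00 over all tested genes, and the smallest edgeR adjusted p was 0.817. Ncam2 alone had libraries that did not overlap between these groups (35.6 to 39.6 against 43.4 to 51.1 CPM), beside a background of 14.4% of genes.

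Against male WT Tau, which asks what the loss of Acss2 adds under Tau, Ntm had the largest estimate, 0.49 (SE 0.19, edgeR unadjusted p = 0.0268, adjusted p = 0.927). Lingo3 was at −0.31 (SE 0.17), Opcml at −0.25, Ncam2 at −0.15, Lsamp at −0.12 and Ncam1 at −0.09. The estimates of Lingo1 (−0.02) and Lingo2 (−0.03) were near 0 with SEs of 0.24 and 0.30, and that of Negr1 was 0.19 (SE 0.32). None of the 9 was called, and the background was again 0.00662%. Ntm was the 1 gene of the 9 at an unadjusted p under 0.05, beside 4.71% of all genes. The libraries did not overlap for 4 of the 9, with Ntm higher and Lingo3, Ncam2 and Opcml lower in KO Tau, beside 12.6% of all genes. The margin was narrowest for Ntm (139.1 against 138.8 CPM) and widest for Opcml (220.0 against 231.6).

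**Figure D3:**
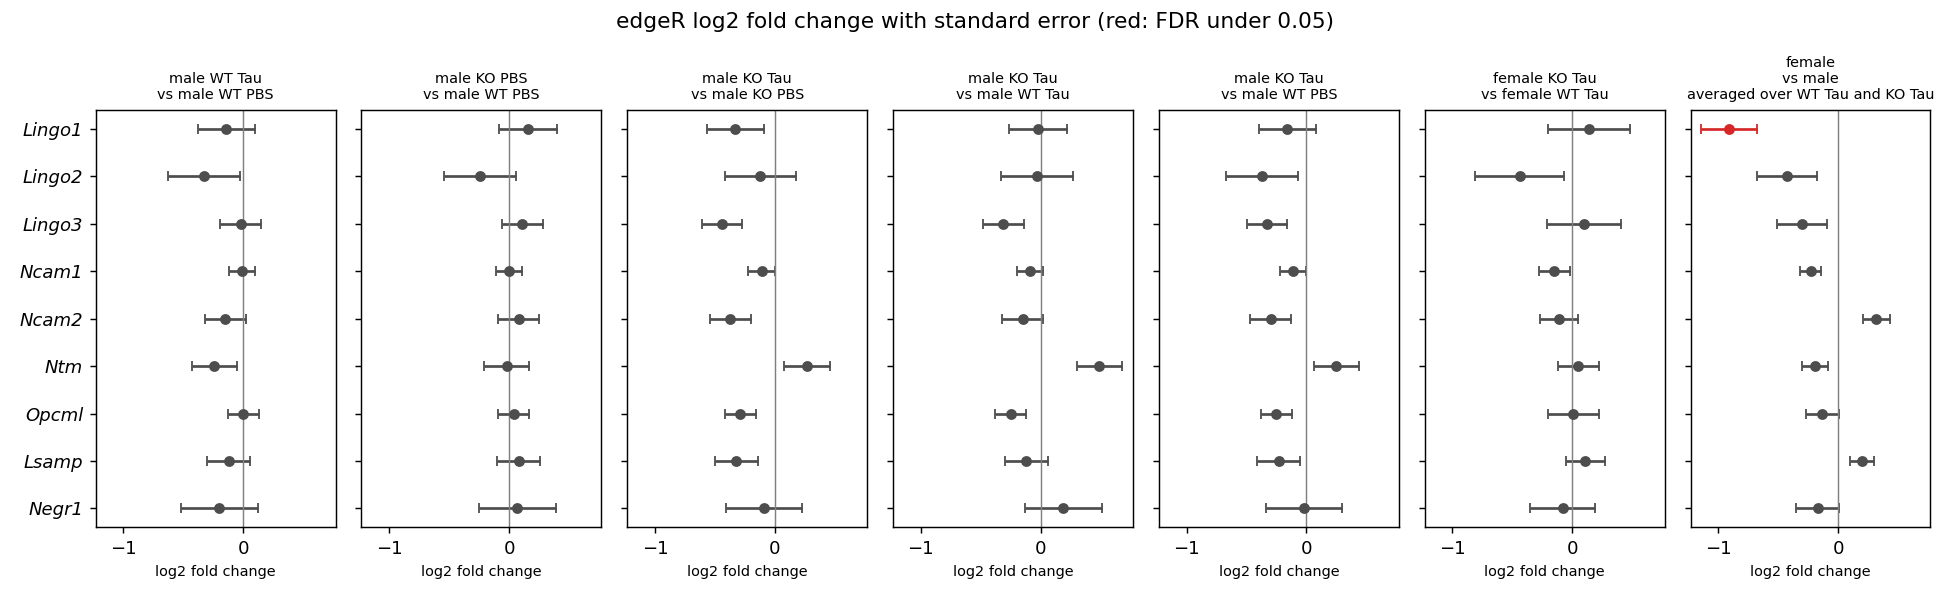
log2 fold change (points) and standard error (bars) of each gene in 7 comparisons by edgeR, with red for an FDR under 0.05. Among the male groups no point is red, Ntm is at 0.49 in KO Tau against WT Tau, and Lingo1 at −0.91 is the red point in female against male.

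Whether Ntm and Lsamp were called in male KO Tau depended on library 711 and on the test used. Without it, the DESeq2 Wald test on the 2 groups compared gave Ntm a log2 fold change of 0.63 against WT Tau (SE 0.10, adjusted p = 1.65e-08), with 7.13% of all genes called. The same test against WT PBS gave 0.40 for Ntm (SE 0.08, adjusted p = 4.03e-05) and −0.43 for Lsamp (SE 0.12, adjusted p = 0.0082), with 5.33% called. The other 7 genes were not called in either, and with 711 kept, or with edgeR on all male groups with or without it, none of the 9 was. Over all genes, DESeq2 on the 2 groups without 711 called 1029 against WT PBS and 1378 against WT Tau. Both counts equal those that the paper reports for these contrasts, though it does not name the library it left out. With 711 kept, DESeq2 on all groups called 15 genes against WT PBS and 4 against WT Tau. By edgeR without 711, 1 gene was called in each. Without 711, the libraries of 5 of the 9 did not overlap with WT Tau (Lsamp joining the 4 above) beside 42.3% of all genes, and those of 3 of the 9, Ntm, Lsamp and Ncam2, did not overlap with WT PBS beside 40.2%. The libraries that remained, 712 and 713, had neocortex marker levels of 691.5 and 683.1 CPM against 403.0 to 427.5 in WT PBS and 274.8 to 435.2 in WT Tau, none of the 6 markers being at 0. The part of these markers in the Ntm and Lsamp values was not tested.

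Tau against PBS in KO mice, male KO Tau against male KO PBS, gave 2 of the 9 at an unadjusted p under 0.05, beside 7.95% of all genes, and none at the FDR, where the background was 0%. These were Lingo3 at −0.44 (SE 0.17, edgeR unadjusted p = 0.026, adjusted p = 0.57) and Opcml at −0.29 (SE 0.13, unadjusted p = 0.0463, adjusted p = 0.625). Ncam2 was at −0.37, Lsamp at −0.32 and Ntm at 0.27. No gene of the 9 had libraries that did not overlap between these groups, beside 9.01% of all genes.

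Tau in WT mice alone, male WT Tau against male WT PBS, called none of the 9 (background 0%) and none was at an unadjusted p under 0.05, beside 1.86% of all genes. The lowest estimate was that of Lingo2, −0.33 (SE 0.30), followed by Ntm at −0.24 (SE 0.19) and Negr1 at −0.20 (SE 0.32). Ntm was the only one of the 9 whose libraries did not overlap, 124.1 to 138.8 CPM against 146.3 to 158.6, beside 12.2% of all genes. When WT Tau 773 was left out, DESeq2 on these groups called Lingo2 (−0.50, adjusted p = 0.026), Ntm (−0.28, adjusted p = 0.014) and Negr1 (−0.34, adjusted p = 0.00142) lower in WT Tau, with 1.43% of all genes called. Library 773 had 435.2 CPM of neocortex markers, and 771 and 772 had 302.2 and 274.8.

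Loss of Acss2 alone, male KO PBS against male WT PBS, called none of the 9 (background 0.00662%), and no unadjusted p was under 0.05, beside 4.42% of all genes. Lingo2 was at −0.24 (SE 0.30) and Lingo1 at 0.16 (SE 0.24). No gene of the 9 had libraries that did not overlap, beside 11.7%. Without KO PBS 752, DESeq2 on these groups put Lingo2 at −0.54 (adjusted p = 0.0498), with 1.15% of genes called, and the remaining KO PBS libraries had neocortex marker levels of 256.5 and 298.1 CPM.

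Averaged over treatment, KO against WT in the 12 male libraries called none of the 9 (background 0.00662%), with Ntm at 0.23 (SE 0.14) and Lingo2 at −0.14 (SE 0.21), and no gene of the 9 separated the 6 KO from the 6 WT libraries, beside 0.397% of all genes. Averaged over genotype, Tau against PBS called none (background 0%). Here 8 of the 9 estimates were negative, with a median of −0.22 beside −0.01 over all genes. Of the partner lists described below, 19 of 23 leucine-rich repeat genes were negative too. So were 11 of 17 L1, contactin and Cadm genes, 6 of 8 NCAM genes and 7 of 13 Nogo pathway genes. Among the 9, Ncam2 at −0.26 (SE 0.12) and Lingo3 at −0.23 (SE 0.12) had the smallest unadjusted p-values. The interaction of genotype and treatment called none (background 0%), with Ntm at 0.51 (SE 0.27, edgeR adjusted p = 0.996) and Lingo3 at −0.42 (SE 0.24). In these 3 tests none of the 9 was at an unadjusted p under 0.05, beside 4.58%, 5.38% and 4.18% of all genes.

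Under Tau, female and male libraries differed in many genes, with Lingo1 among them. Averaged over WT and KO, Lingo1 was lower in female libraries by a log2 fold change of −0.91 (SE 0.23, edgeR adjusted p = 0.0203), which is 0.531 times the male level. It was the 1 gene called of the 9, beside 23.8% of 15419 genes, and 3 of the 9 were at an unadjusted p under 0.05, beside 39.8%. The 9 were thus not called more often than genes in general. Ncam2 was at 0.32 (SE 0.11, adjusted p = 0.0513 by edgeR) and Ncam1 at −0.23 (SE 0.09, adjusted p = 0.0845). The remaining estimates were −0.43 for Lingo2, −0.30 for Lingo3, −0.19 for Ntm, −0.17 for Negr1, −0.13 for Opcml and 0.20 for Lsamp. None of the 9 had female Tau libraries that did not overlap with the male Tau libraries, beside 10.5% of all genes, since 711 lay among the female values of Lingo1.

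The Lingo1 call was lost when female WT Tau 331 (adjusted p = 0.101), male KO Tau 713 (adjusted p = 0.0522) or male WT Tau 773 (adjusted p = 0.0547) was left out of the edgeR fit, with estimates of −0.75, −0.83 and −0.86. Without 711, edgeR called 5 of the 9, beside 40.7% of all genes. These were Lingo1 (−1.02), Ncam1 (−0.24) and Ntm (−0.25), lower in female libraries, and Ncam2 and Lsamp (0.32 each), higher. DESeq2 called Lingo1 and Ncam2 (background 21.4%), and voom with sample weights called Lingo1, Lingo2, Ncam1 and Lsamp (background 40.1%). Markers moved in the same comparison, by edgeR with every library kept, where 23.8% of all genes were called. Astrocyte markers were called higher for 4 of 6, endothelial markers for 4 of 5 and thalamus markers for 2 of 5, while 4 of 7 markers of inhibitory neurons, 3 of 6 of the neocortex and 2 of 5 of CA1 were called lower. Microglia markers were called higher for 2 of 6, oligodendrocyte markers for 2 of 8 and precursor markers for 1 of 3, nearer that share. No marker of dentate granule cells, CA2 and CA3, choroid plexus or striatum was called. Summed astrocyte markers ranged over 4015.6 to 5741.1 CPM among the 5 female libraries and 2091.5 to 2635.9 in the male Tau libraries other than 711, which was at 3824.0, and their part in the Lingo1 difference was not tested.

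Within the female libraries, KO Tau against WT Tau called none of the 9 (background 0.00649%, which was Acss2), and no unadjusted p was under 0.05, beside 2.89% of all genes. Lingo2 was at −0.44 (SE 0.37) and Lingo1 at 0.14 (SE 0.34). The libraries of Lingo2 and Ncam1 did not overlap, both lower in KO Tau, beside 16% of all genes, and for Lingo2 the nearest values were equal to the printed digits (17.4). The effect of genotype was not shown to differ between sexes for any of the 9 (background 0%). None was at an unadjusted p under 0.05, beside 2.94% of all genes. The largest differences were −0.44 (SE 0.23) for Ntm, −0.41 (SE 0.49) for Lingo2 and 0.40 (SE 0.42) for Lingo3.

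Over all 6 groups at once, 1 of the 9 genes, Lingo1, differed between groups (edgeR F = 6.03, adjusted p = 0.0248). Over all genes it was 19% of 15594, so the 9 were not called more often here either. Ncam1 came next (F = 3.13, adjusted p = 0.125 by edgeR) and Negr1 last (F = 0.537, adjusted p = 0.819). The Lingo1 call was lost with length and GC offsets (adjusted p = 0.0543) and when female KO Tau 324 (adjusted p = 0.0648), female KO Tau 325 (adjusted p = 0.053) or female WT Tau 331 (adjusted p = 0.0692) was left out of the edgeR fit. Without female WT Tau 341, Lingo3 passed as well (edgeR adjusted p = 0.0212). With voom and sample weights, Lingo1, Lingo2, Ncam1, Ntm and Lsamp passed, beside 34.7% of all genes.

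Partner and pathway genes of the 9 were taken from 4 lists. For male KO Tau set against male WT PBS, none of 13 genes of the Nogo receptor pathway, 8 of NCAM modification and signalling, 17 of the L1 family, contactins and Cadm genes and 23 other leucine-rich repeat adhesion genes was called, beside 0.00662% of all genes. The largest estimates were −0.35 for Ngfr, a co-receptor of the Nogo complex, −0.41 for St8sia4, a polysialic acid synthase that acts on NCAM1, −0.60 (SE 0.44) for Cntn5, a contactin, and −0.40 for Amigo3. The list medians were 0.04, −0.10, −0.15 and −0.10, beside 0.00 over all genes.

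Between female and male Tau libraries, 5 of the 13 Nogo pathway genes were called, beside 23.8% of all genes. Lower in female libraries were Rtn4r, the Nogo receptor itself (−0.90, SE 0.20, edgeR adjusted p = 0.0137), its relative Rtn4rl2 (−0.62), Dpysl2 (−0.59), which encodes an effector of growth cone collapse, and Arhgdia (−0.33). Rock1, a kinase gene, was higher (0.51, SE 0.13). Of the 8 NCAM genes 2 were called, St8sia4 higher (0.54) and the focal adhesion kinase gene Ptk2 lower (−0.33). Of the 17 L1, contactin and Cadm genes 2 were called, L1cam (−0.68) and Cadm3 (−0.64), both lower. The last 2 of these counts were near or below the share over all genes. Of the 23 leucine-rich repeat genes, 9 were lower and none higher, namely Flrt1 (−0.81), Lrfn3 (−0.63), Lrrc4b (−0.60), Lrfn4 (−0.54), Lrfn1 (−0.53), Lrrc4 (−0.45), Lrfn2 (−0.39), Lrrtm1 (−0.37) and Amigo1 (−0.37), most of them genes of synaptic adhesion. Rtn4r ranged from 39.6 to 64.1 CPM over female and from 56.1 to 116.3 over male Tau libraries, where the lowest was again in KO Tau.

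Within groups, several of the 9 varied together over the 17 libraries, taken as log2 CPM less the group mean. These correlations describe libraries that share tissue make-up, and were not tested. Negr1 varied with Lingo2 (Pearson r = 0.87, Spearman coefficient = 0.92, and r = 0.87 without the 2 libraries most extreme in Lingo2). Negr1 and Lsamp went in opposite directions (r = −0.88, Spearman −0.85), less so without 711 and 752 (r = −0.61). Ntm and Lsamp did too (r = −0.81, Spearman −0.70, and r = −0.77 without 751 and 752). Lingo1 and Opcml varied together (r = 0.77, Spearman 0.72, and r = 0.60 without 711 and 325). Ncam1 had r between −0.26 and 0.32 with the other 8, and these values rested on 2 libraries. Without 324 and KO PBS 752, its r was 0.62 with Negr1, −0.61 with Lsamp, 0.55 with Opcml and 0.45 with Ntm.

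**Figure D4:**
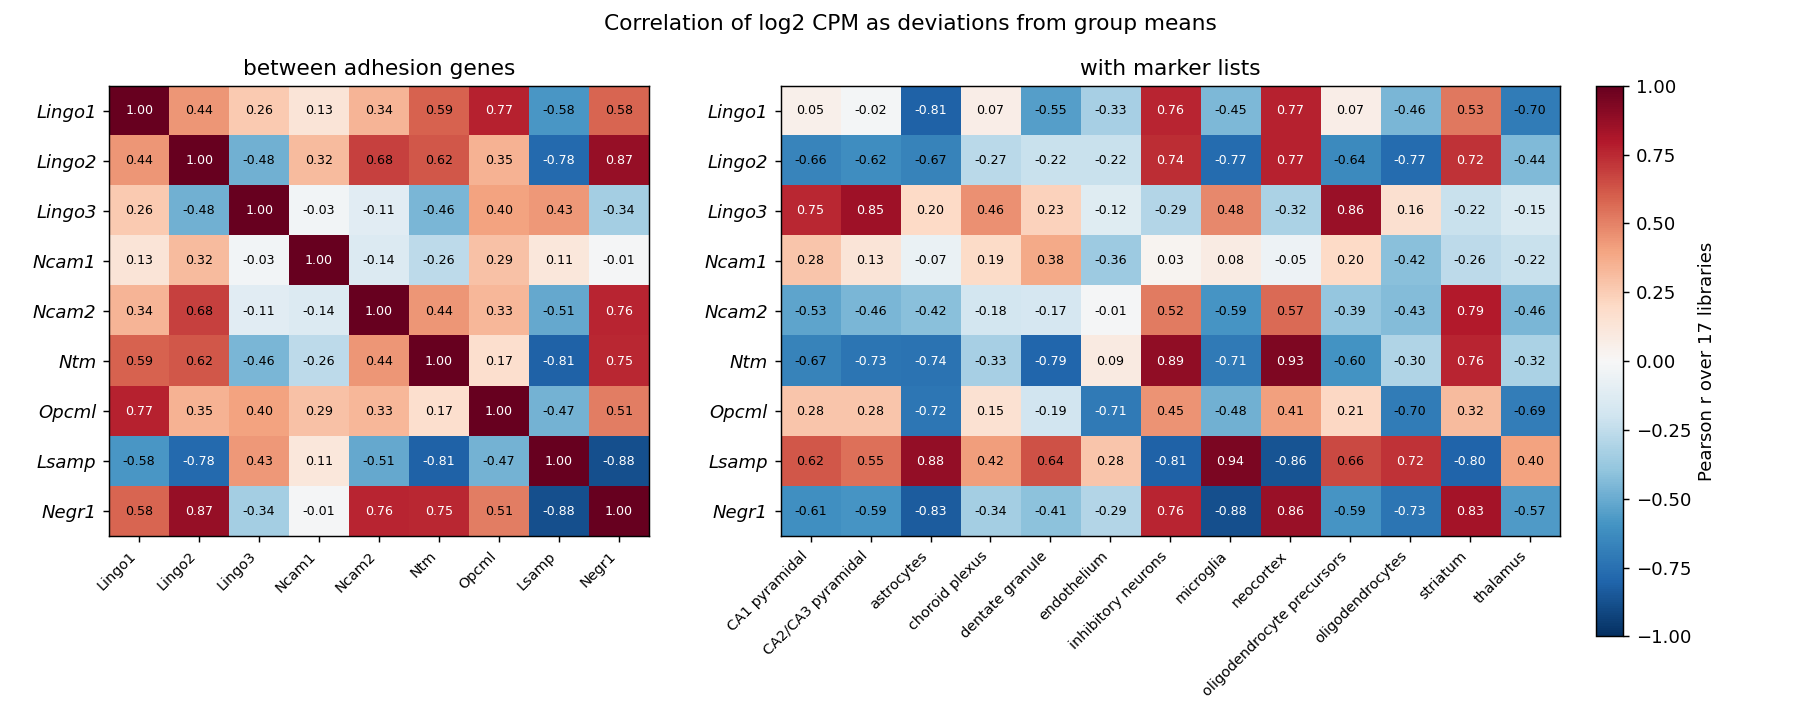
Pearson r of log2 CPM, as deviations from group means over 17 libraries, between the 9 genes (left) and between each gene and 13 marker lists (right), red for positive and blue for negative. Ntm, Negr1, Lingo1 and Lingo2 are red with the neocortex list, where Lsamp is blue, and Lingo3 is red with CA2 and CA3.

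Levels of 5 of the 9 genes varied with the neocortex markers. For Ntm, to which no other of the 13 lists was closer, r was 0.93 (Spearman 0.87), for Negr1 0.86 (Spearman 0.84), for Lingo1 0.77 (Spearman 0.73), for Lingo2 0.77 (Spearman 0.81) and for Lsamp −0.86 (Spearman −0.78). Without 711 and KO PBS 752, the libraries farthest out in these markers, r was 0.71 for Ntm, 0.59 for Lingo1, 0.49 for Negr1, 0.46 for Lingo2 and −0.25 for Lsamp, so the Lsamp relation rested on these libraries. Lsamp was closer to the microglia markers (r = 0.94, Spearman 0.83, and r = 0.87 without 711 and 753), and so was Negr1, in the opposite direction (r = −0.88, Spearman −0.72, and r = −0.67 without these libraries). Negr1 also went against the astrocyte markers (r = −0.83, Spearman −0.84), and this relation changed little without 711 and 712 (r = −0.82). Lingo3 varied with the markers of CA2 and CA3 (r = 0.85, Spearman 0.86) and with those of oligodendrocyte precursors (r = 0.86, Spearman 0.80), and Lingo1 went against the astrocyte markers (r = −0.81, Spearman −0.78, and r = −0.69 without 711 and 712). The neocortex list was not alone. With the striatum markers, r was 0.83 for Negr1, 0.76 for Ntm, 0.72 for Lingo2, 0.53 for Lingo1 and −0.80 for Lsamp. Without 751 and 752 these were 0.81, 0.36, 0.83, 0.57 and −0.70. Library 752 had 443.6 CPM of striatum markers, and the next highest, 712, had 157.3. With the inhibitory neuron list, in the same order, r was 0.76, 0.89, 0.74, 0.76 and −0.81. Without 711 and 752 it was 0.13, 0.61, 0.28, 0.51 and 0.09.

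**Figure D5:**
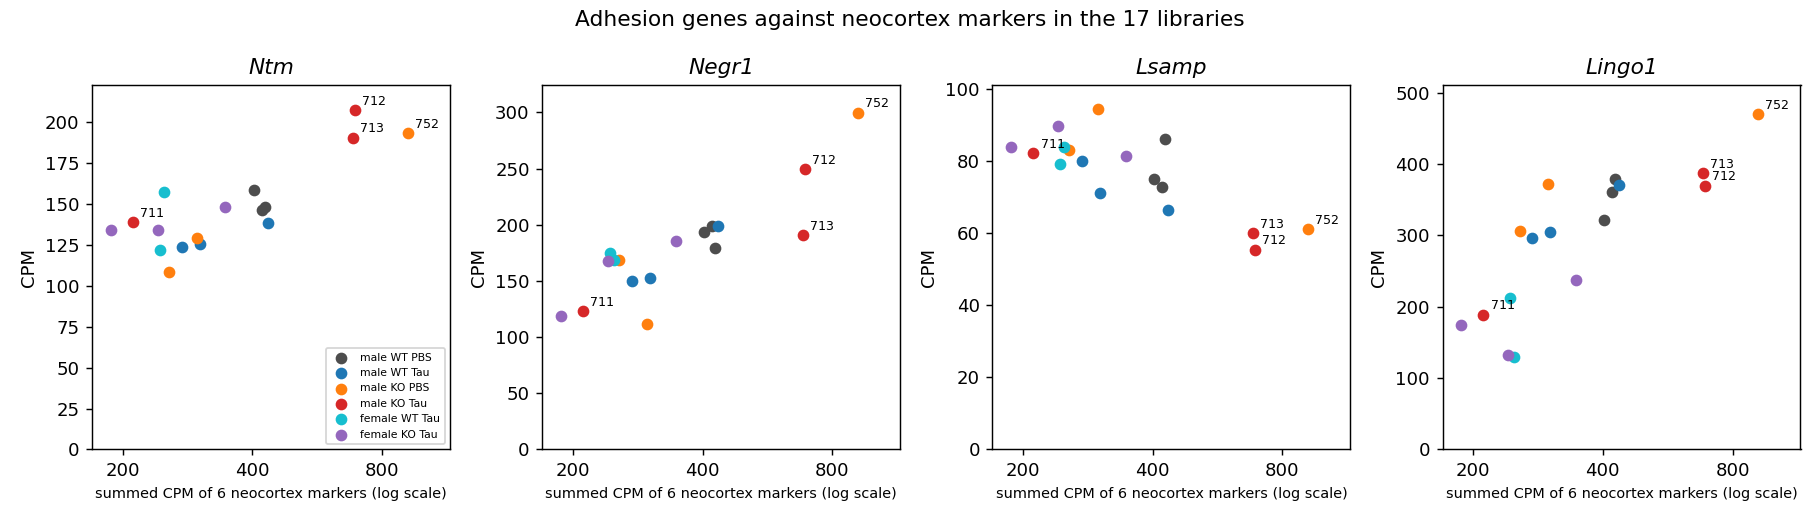
CPM of Ntm, Negr1, Lsamp and Lingo1 against the summed CPM of 6 neocortex markers (log axis) in the 17 libraries, coloured by group, with 4 libraries numbered. Libraries 712, 713 and 752 have the highest marker levels, high Ntm and the lowest Lsamp, and 711 is near the female libraries.

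Over 15594 genes, those most like each member by the same within-group r are listed as a description over 17 libraries. Lingo1 was most like Ptprn (r = 0.98), which encodes a protein of secretory vesicles, Syn1 (0.97), the synaptic vesicle gene synapsin I, and Lhx6 (0.97), a transcription factor gene of inhibitory neurons. Lingo2 was most like Tiam2, Vstm5 and Prkar2b (0.95 each) and Lingo3 most like Slc17a8 (0.96), a vesicular glutamate transporter gene, Trio (0.95) and Strip2 (0.95). Ntm was most like Cmc2 (0.97), R3hdm2 (0.96) and Rasgef1b (0.96), Opcml most like Rabgap1 (0.96), March6 (0.95) and Tbck (0.95), and Negr1 most like Fgf14 (0.97), Hs2st1 (0.96) and Slc2a13 (0.95). Lsamp was most like Pygb (0.96), which encodes glycogen phosphorylase, Dok1 (0.96) and Dapp1 (0.95). The NCAM genes had no match as close, with 0.89 for Ncam1 and Syt10 and 0.89 for Ncam2 and Csnk2a1.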

How the data were processed

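Libraries were grouped by their labels into 6 groups. The authors aligned reads with STAR 2.5.2 to mm10 (GRCm38) and used HTSeq 0.9.1 with the reverse strand setting to count exonic reads. What they deposited was a table of raw counts by gene symbol. SAMtools 1.1 and DESeq2 are also named in the submitters' processing notes. The annotation release is not given in the sources used here. Total counts ran from 14183131 to 22463635 per library, and the floor of 3 counts covers counting error only. The SEs come from the fits and include the spread between libraries. For edgeR, the SE is the size of the log2 fold change divided by the square root of F. No pair among 136 pairs of libraries was identical.

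Counts were analysed with edgeR 4.0.16 (R 4.3.3): TMM factors, filterByExpr with a minimum of 10 counts and a total of 15, quasi-likelihood F-test, and Benjamini-Hochberg adjustment over all tested genes with a threshold of 0.05. The 12 male libraries entered 1 fit of 4 groups, the 11 Tau libraries a second of 4 groups, and all 17 the test over 6 groups. The study's methods name the DESeq2 Wald test on male mice, and its male KO Tau group was smaller than the labels give. DESeq2 1.42.0 was therefore run on all groups, on the groups compared only, and on these with each library left out. RLE factors, a minimum of 1 count, limma 3.58.1 voom with sample weights, offsets for gene length and GC content, a fit of all libraries and leaving out each library were the other alternatives. The fits were tested on simulated data.

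CPM is a gene's count scaled to a library total of 1000000, and RPKM divides it by the kilobases of exon in GENCODE on GRCm38, in which 98.4% of symbols were found. Promoter windows came from RefSeq on GRCm38.p6, where 8 of the 9 genes had an entry. Correlations used log2 CPM (prior count 2). The 9 genes were always named. Also named were Acss2, the relatives Lingo4 and Iglon5, partner genes that passed the threshold or, where none did, had the largest fold change between male WT PBS and male KO Tau, and the 3 genes most correlated with each member. The members, the 4 partner lists and the 13 marker lists were chosen with earlier results of these data known.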

Additional observations from a re-analysis of the deposited data

How the results depend on the processing

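No paired analysis was possible because the library numbers in the labels are not shared between groups. For 47 pairs of a gene and a comparison, 1071 alternative values were computed, and 1020 kept the direction and the side of the threshold. Another 30 changed sign, 24 of them with a library left out, 18 passed the threshold newly and 3 no longer did. The calls gained and lost in the test over the 6 groups are not in this tally. There Lingo1 lost its call with length and GC offsets or without 324, 325 or 331. Other genes gained calls there with voom or without 341. With sample weights in voom, male KO Tau against male WT Tau had log2 fold changes of 0.22 for Lingo1 and 0.09 for Lingo2, and against male WT PBS 0.06 for Lingo1 and 0.07 for Negr1. With length and GC offsets, Lingo2 was at 0.07 against WT Tau and Negr1 at 0.05 against WT PBS. With a library left out, male KO Tau against male WT Tau ran from -0.19 to 0.24 for Lingo1, -0.37 to 0.24 for Lingo2 (0.15 with DESeq2 without 773) and -0.06 to 0.41 for Negr1. Against male WT PBS it ran from -0.34 to 0.10 for Lingo1 and -0.26 to 0.21 for Negr1 (0.03 with DESeq2 without 793). Lingo1 ran from -0.01 to 0.29 with edgeR and to 0.30 with DESeq2 in male KO PBS against male WT PBS. In female KO Tau against female WT Tau it ran from -0.19 to 0.57 with edgeR and to 0.59 with DESeq2, where it was -0.18 without 331 and -0.12 without 314. The sex by genotype interaction of Lingo3 ran from -0.09 to 1.17, and female against male from -0.31 to 0.02 for Opcml. The cause was not tested.

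With a library left out, the number of the 9 genes called ran from 0 to 3 in male WT Tau against male WT PBS, 0 to 1 in male KO PBS against male WT PBS, 0 to 1 in male KO Tau against male WT Tau, 0 to 2 against male WT PBS, 0 to 5 in female against male and 0 to 2 over the 6 groups. In female against male it was 2 with RLE factors, 2 with DESeq2 and 4 with voom, and over the 6 groups it was 5 with voom and 0 with length and GC offsets. In the other 6 comparisons no alternative called any of the 9. Depth did not limit these genes, whose lowest count was 103. The number of libraries, 2 or 3 a group, limits every comparison.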

Other observations

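Both relatives outside the 9 genes were called between female and male Tau libraries, in opposite directions, where 23.8% of all genes were called. Iglon5, the fifth IgLON gene, was at 24.6 to 32.8 CPM in the 12 male libraries and at 16.2 to 23.5 in the 5 female ones, without overlap, and between the Tau libraries of the sexes 10.5% of all genes did not overlap. Between female and male Tau libraries its log2 fold change was -0.47 (SE 0.10, edgeR adjusted p = 0.0105), and it differed over the 6 groups (F = 12, edgeR adjusted p = 0.00431). Lingo4 had between 8 and 28 counts a library. It was at 0.417 to 1.19 CPM in the male libraries and 0.635 to 1.78 in the female ones, which overlapped, and its log2 fold change between female and male Tau libraries was 1.04 (SE 0.32, edgeR adjusted p = 0.0369). Lingo1 and Iglon5 were thus lower and Lingo4 higher in the female libraries, and sex and any other difference between these sets of libraries cannot be told apart.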
